A study of Mus musculus with 4 samples.

Results

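The transcripts described here are the 73 gene symbols, of 22552 measured, that stood at 500 FPKM or more in every library of round spermatids with and without Sox30. FPKM counts fragments per kilobase of transcript, scaled by the mapped fragments of the library, so levels can be set beside each other per length. The 73 were found by summing the entries of each symbol, requiring the floor of 500 FPKM in each of the 4 libraries, which gave 145 symbols, and leaving out 72 of these by name. The names left out were clone-like and predicted symbols, families such as ribosomal, respiratory chain, proteasome, histone, tubulin and heat shock genes, and Ldhc, Meig1, Ropn1l, Zpbp2, Spink2 and Mt1. Since the measured levels chose the members, their levels and the differences between genotypes are a description with no test, and the floor itself keeps out any symbol far lower without Sox30. All libraries were made from haploid cells sorted by Hoechst dye from the testes of male mice aged 23 days; by the design text, spermatids had then reached step 3 and no later ones were there. Wild-type mice and Sox30 knockout mice gave 2 libraries each. The labels name neither the allele nor a Cre driver, and do not say whether separate animals were used for each library. Any p-value below therefore measures only how far these libraries differ among themselves, and that spread may be technical. The background strain is labelled DBA/C57/ICR for wild-type library 1, DBA/C58/ICR for knockout library 1, DBA/C59/ICR for wild-type library 2 and DBA/C60/ICR for knockout library 2. Values below are always given in the order library 1, library 2.

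Male germ cells switch on a large programme of testis-specific genes in meiotic prophase, at the pachytene stage, and a further wave after the meiotic divisions, in round spermatids. Transcripts made in meiosis can persist into round spermatids, so a haploid cell holds RNA from both waves. SOX30 is a transcription factor of the SOX family that is found in meiotic and early haploid male germ cells. Many of the 73 code for small proteins of the sperm tail, the mitochondrion and the sperm head, and several, such as Fabp9, Tcte3 and Crisp2, are textbook genes of meiotic prophase. Only sorted haploid cells were measured here, so when a transcript is first made is background knowledge and not a result.

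Sox30 itself had 11.4 and 16.2 FPKM in wild type, falling to 1.46 and 3.16 FPKM in the knockout, a fall of 2.19 on the log2 scale (SE 0.43, limma with Benjamini-Hochberg adjustment, adjusted p = 0.0219). The deposited values hold no read counts, so the depth of each library is unknown. Over the 9124 genes with a mean of at least 1 FPKM, 1221 were lower and 178 were higher in the knockout libraries at an adjusted p under 0.05. Those counts ran from 0 lower and 0 higher without wild-type library 2 (1412 at an unadjusted p under 0.05) to 3071 lower and 984 higher without knockout library 1, and were 386 and 0 without wild-type library 1 and 1846 and 898 without knockout library 2. None of the 73 members is in a list of cell type markers used here. The summed level of 11 round spermatid markers, among them Acrv1, Tnp1 and Prm2, was 11947 and 7458 FPKM with Sox30 and 470.1 and 348 FPKM without it, and that of 13 spermatocyte markers was 786 and 705 against 688 and 527 FPKM. The 12 spermatocyte markers tested had a median log2 difference of -0.84, with 1 lower and 0 higher by limma (6 and 0 at an unadjusted p under 0.05). Their sum without Sox30 came mostly from Sycp3 (143 and 172 FPKM) and Ccna1, which stood at 163 and 192 FPKM with Sox30 and at 369 and 210.02 FPKM without it. Spermatogonial markers summed to 58.5 and 56.1 against 13.1 and 9.58 FPKM. Markers of blood cells and macrophages summed to 248 and 148 against 9.32 and 0.461 FPKM, mostly from the haemoglobin gene Hba-a1 with Sox30 (220.4 and 108.8 FPKM). Macrophage markers were near 0 in both genotypes. Lyz2 stood at 0.158 and 0.226 against 0 and 0 FPKM, Csf1r at 0.0174 and 0.0125 against 0 and 0.283 FPKM, and Cd68 at 0 and 0 against 0.811 and 0 FPKM. The 9 Leydig cell markers summed to 62.1 and 38.4 FPKM with Sox30, mostly Insl3 (54.8 and 30.3 FPKM). Without it 6 of them were listed at 0 in both libraries, 1 of which, Hsd17b3, was at 0 in every library, and the sum was 22.6 FPKM in knockout library 1, of which Fabp3 gave 22.5, and vanishingly small in knockout library 2. The Sertoli cell sum of 262 and 515 against 350.0 and 407 FPKM came mostly from Clu and Cst12, while Amh was listed at 0 in every library and Sox9 did not pass 0.571 FPKM. In sorted bulk cells, fewer cells of a type and less RNA per cell cannot be told apart, and the part of these differences in the levels of the 73 was not tested.

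The 73 transcripts were among the most abundant of every library. In wild type 16.7% and 15.5% of the summed FPKM came from them, and in the knockout 20.1% and 21.3%. Fabp9, the fatty acid binding protein of the perinuclear theca of sperm, ranked highest of all symbols in each library, at 7093 and 5446 FPKM in wild type and 8687 and 13636 FPKM without Sox30. Tcte3, a light chain of the dynein motors of the sperm tail, stood at 4397 and 3318 FPKM with Sox30 and at 7470.0 and 9681 FPKM without it. The knockout libraries were the higher ones for both genes, with no overlap between genotypes. Fabp9 and Tcte3 together held 2.02% and 1.75% of all FPKM in wild type and 2.70% and 3.46% in the knockout. The median member stood at 924 and 912 FPKM with Sox30 and at 1278 and 1522 FPKM without it, and 23 members were above 1000 FPKM in each library. In both wild-type libraries and knockout library 1 all 73 were among the 196 most abundant symbols, and the lowest place in knockout library 2 was 250, held by Slc25a39, a mitochondrial carrier needed for glutathione import.

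Without Sox30 most of the 73 stood at a like or higher FPKM than in wild type. Log2 differences are of FPKM + 1, knockout minus wild type, and folds are on that scale. The 73 had a median difference of 0.57 (quartiles 0.25 and 0.83), running from -0.69 for Mlf1 to 1.28 for Ggnbp1. Both knockout libraries lay above both wild-type libraries for 48 members (65.8%), where 22.2% of the 9124 genes tested did so, and below both for 3, Mlf1, Csda and Crisp2, where 38.6% did. A log2 difference above 0 was found for 64 members (87.7%) and for 40.2% of genes tested. Of the 1018 genes with a mean of at least 100 FPKM, 49.6% had both knockout libraries above both wild-type libraries, and their median log2 difference was 0.34. For all genes at 500 FPKM or more in both wild-type libraries, the members among them, that median was 0.54, close to that of the members. This last group had no condition on the knockout libraries and no names dropped. By limma 3 members (Aprt, Ggnbp1 and Pebp1) were called higher, where 1.95% of genes tested were, and 0 were called lower, where 13.4% were. At an unadjusted p under 0.05 limma gave 21 higher and 1 lower, where 2860 of the 9124 genes tested passed in either direction. Nothing is read from these shares, because the floor in every library chose the members from the same contrast. There were 7 members at least 2-fold higher in the knockout (Ggnbp1, Ddt, Tcte3, Aprt, Myeov2, Pgam2 and Pebp1) and 0 at least 2-fold lower, and 38 differed by less than 1.5-fold.

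These directions are those of FPKM as deposited and depend on how libraries are scaled to each other. Quantile normalization, which gives every library the same set of values, left a median difference of 0.02 over the members, with 38 above 0 and 34 below, 24 members with both knockout libraries above wild type and 17 with both below. It moved the median over all genes tested from -0.23 to 0.20. Fabp9, top of every library, then has a difference of 0 by construction, while Tcte3 stayed above wild type in both knockout libraries (0.38). After median-ratio scaling the members' median was 0.79, 50 were above wild type in both knockout libraries and 0 below, and the median over all genes was -0.03. Mlf1 had a negative difference under each scaling, -0.46 by median ratio and -1.18 by quantiles, but its libraries overlapped under the former. A correction for transcript GC content, chosen after the data were seen, left Mlf1 at -0.08 and turned the sign for Crisp2 (0.49), Mael (0.31), Spcs1 (0.39), Taf9 (0.56) and Tcp11 (-0.15).

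**Figure D1:**
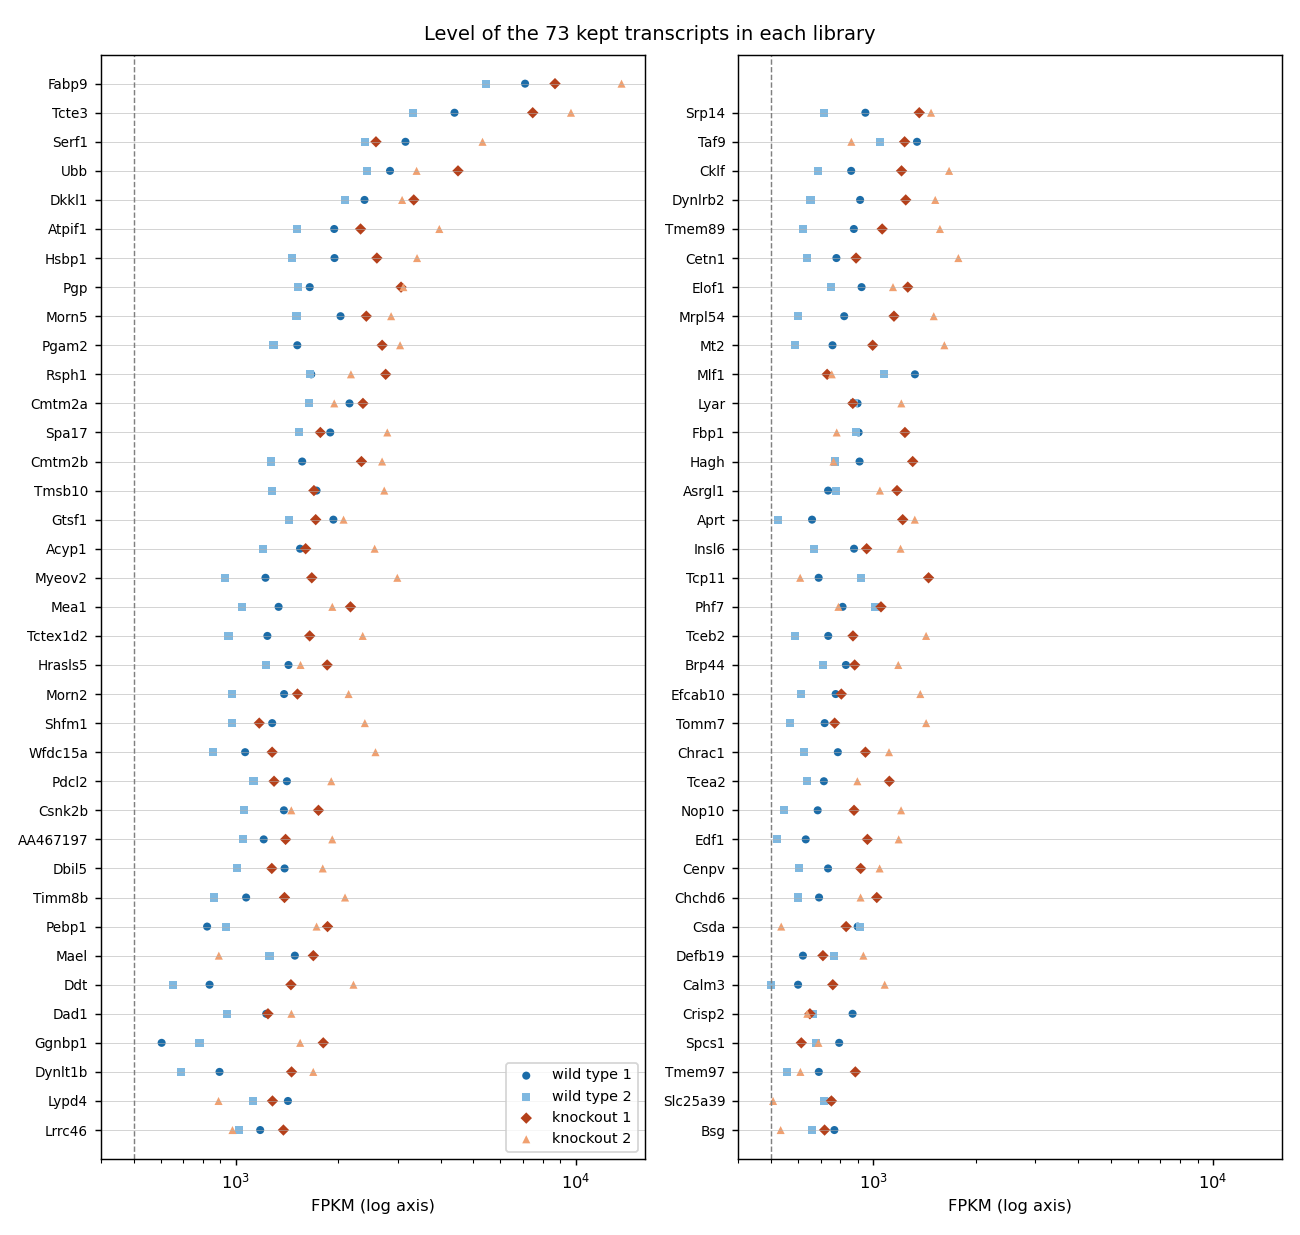
FPKM (log axis) of each of the 73 transcripts in the 4 libraries, ordered by mean; the dashed line is the floor of 500 FPKM and each marker is 1 library. Fabp9 and Tcte3 lie furthest to the right, the knockout libraries lie above both wild-type libraries for 48 transcripts and below both for Mlf1, Csda and Crisp2.

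The same names-dropped rule applied to one genotype at a time shows what the 73 were separated from. In both wild-type libraries 95 symbols reached the floor, and the 73 are 76.8% of them; in both knockout libraries 113 did, and the 73 are 64.6% of those. The 22 that reached it in both wild-type libraries and missed it in at least 1 knockout library lay in separate ranges. For 11 of them (Cypt12, Fam24a, Oaz3, Prm1, Prm2, Ropn1, Smcp, Spaca3, Tmem210, Tnp1 and Tnp2) the knockout value was at most 54.5 FPKM. For the other 11 the knockout mean was 409.95 to 626 FPKM, and 10 of them reached the floor in 1 knockout library. Prm1, a protamine that packs sperm DNA, was the most abundant of the former 11, at 5537 and 3145 FPKM with Sox30 and at 25.2 and 1.54 FPKM without it. The 22 together made up 4.35% and 3.52% of all FPKM in wild type and 1.10% and 0.737% in the knockout. These shares and those of the 73 are percents of the same summed FPKM of each library, so they are not independent. That sum was 567627 and 500707 FPKM with Sox30 and 597708 and 674234 FPKM without it. FPKM divides by length, so a percent of it is not a share of fragments. Both comparisons rest on the same 4 libraries. The 3 members nearest the floor by their lowest library were Calm3 at 500.5, Slc25a39 at 507 and Edf1 at 522 FPKM, and the 3 symbols nearest below it were Syngr4 at 496, Tmbim4 at 490.2 and Ccl27a at 488 FPKM. Those 3 outsiders had log2 differences between genotypes of 0.39, 0.57 and 0.74, inside the range of the members.

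**Figure D2:**
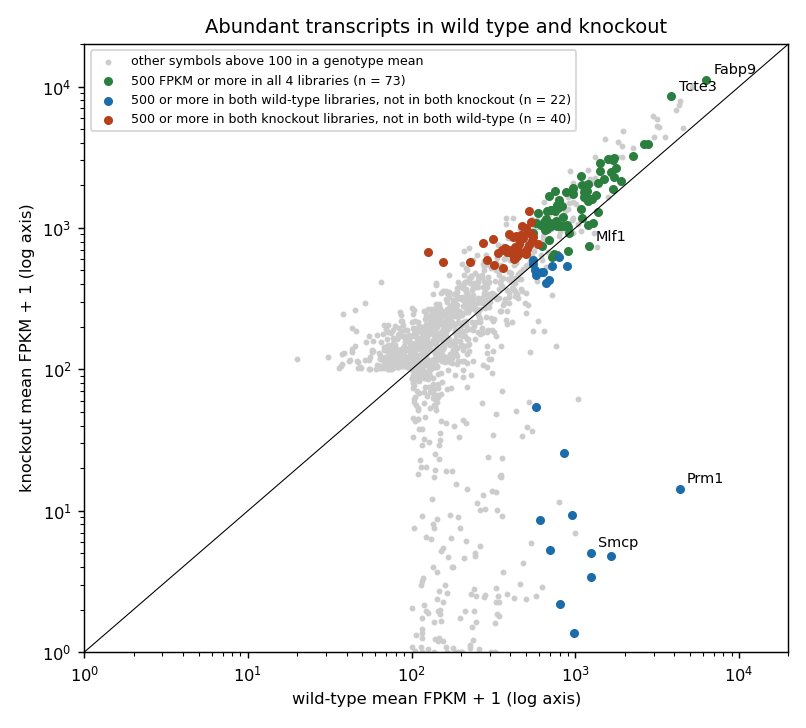
Mean FPKM + 1 of the 2 knockout libraries against the 2 wild-type libraries (both log axes), 1 point per symbol; the line marks equal levels. The 73 members (green) run along and above the line up to Fabp9, with Mlf1 below it, while Prm1 and Smcp are among the 11 of the 22 blue points that lie far below it; blue marks symbols that missed the floor in at least 1 knockout library only, and red those that did so in at least 1 wild-type library only.

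The sequence before the start of these genes was read from RefSeq promoter entries on GRCm38.p6, which hold the 250 bases before and the 50 bases after each start. An entry was matched for 60 of the 73, and where a gene had several starts, as 11 did, the one listed foremost was used. The 300 bases held a median of 24 CG dinucleotides (quartiles 13 and 29), compared with 20 for genes of at least 1 FPKM and 7 for all 27025 promoters. For the 9 matched genes whose knockout mean was under 60 FPKM the median was 2, and for the 9 matched ones of the other 11 it was 22. The ratio of observed to expected CG had a median of 0.79 over the members and of 0.14 over the 9. Members were not alike in this: Pgam2 had 1 CG dinucleotide and Phf7, a histone reader of male germ cells, had 50. The 250 bases before the start of Tcte3 are set beside those of Prm2 and of Smcp, a protein of the sperm mitochondrial capsule, to show the contrast between a kept transcript and transcripts nearly absent without Sox30. Capitals mark each CG, of which there are 21, 2 and 0. Tcte3 lies at chr17:15041560-15041809, Prm2 at chr16:10792106-10792355 and Smcp at chr3:92589074-92589323, all on the minus strand.
Tcte3: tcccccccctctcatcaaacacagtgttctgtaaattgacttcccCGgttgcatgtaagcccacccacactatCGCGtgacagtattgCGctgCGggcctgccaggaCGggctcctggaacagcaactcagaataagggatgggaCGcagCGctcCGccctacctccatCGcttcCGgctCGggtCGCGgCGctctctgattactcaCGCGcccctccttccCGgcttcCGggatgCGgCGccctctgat
Prm2: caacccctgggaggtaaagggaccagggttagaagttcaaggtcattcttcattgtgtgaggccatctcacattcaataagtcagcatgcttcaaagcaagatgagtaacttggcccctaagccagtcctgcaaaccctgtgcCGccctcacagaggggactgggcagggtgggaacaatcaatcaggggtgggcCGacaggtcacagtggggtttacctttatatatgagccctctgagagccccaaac
Smcp: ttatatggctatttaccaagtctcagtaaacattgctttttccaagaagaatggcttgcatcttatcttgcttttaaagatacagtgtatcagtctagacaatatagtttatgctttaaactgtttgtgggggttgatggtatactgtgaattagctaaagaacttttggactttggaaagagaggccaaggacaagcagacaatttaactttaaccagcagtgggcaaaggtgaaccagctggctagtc

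**Figure D3:**
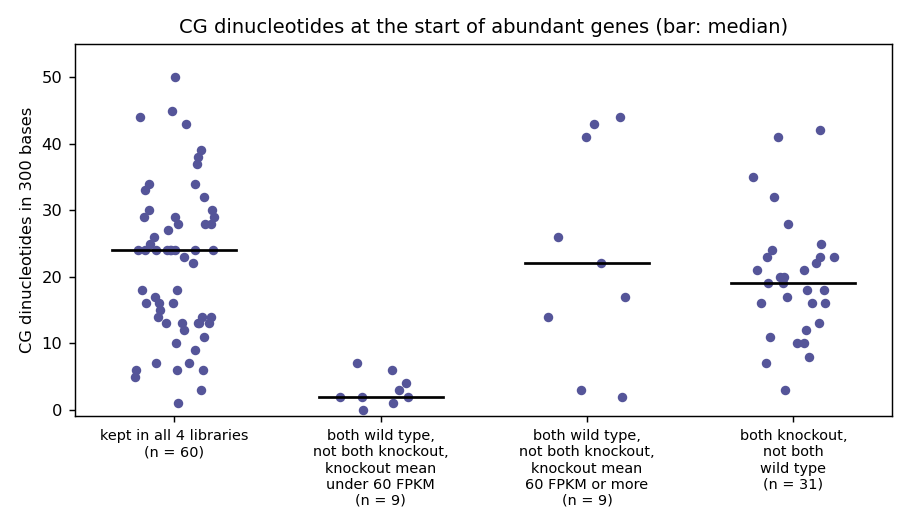
Number of CG dinucleotides in the 300 bases around the start, 1 point per gene with a RefSeq promoter entry and a bar at the median, for members and for symbols that reached the floor in both libraries of 1 genotype and missed it in at least 1 library of the other. Members have a median of 24, the wild-type group with a knockout mean under 60 FPKM has 2, and the other groups have 22 and 19.

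Short motifs were searched on both strands of the same 300 bases. TGACG, the core of the cAMP response element (CRE) bound by CREM, stood in 14 of 60 members (23.3%), in 32.8% of genes of at least 1 FPKM and in 21.02% of all promoters. The full CRE, TGACGTCA, which contains that core, was found in 1 member (1.67%, against 3.70% of expressed genes and 1.88% of all promoters). AACTGNC, a MYB motif, stood in 9 members (15%, against 12.5% and 12.9%), and TATAAA in Chchd6, Crisp2, Pdcl2 and Shfm1 (6.67%, against 7.79% and 14.2%). ACAATGG, a SOX motif, was in 0 of 60 member windows, in 2.95% of expressed genes and in 3.71% of all promoters, which says only that these letters are not in this window. GTTGCCA, a motif of RFX factors, which drive genes of cilia, was in 7 members (11.7%, against 5.62% and 4.46%). Those 7 were Brp44, Efcab10, Mlf1, Morn2, Pdcl2, Tcp11 and Tmem89. Tcp11, a sperm protein of the t-complex, had it on each strand, starting 152 and 125 bases before the start. Mlf1, whose transcript was the most reduced member, held the full CRE 54 bases before the start. Capitals in the sequences mark both GTTGCCA matches (on either strand) in Tcp11 and the full CRE in Mlf1, whose GTTGCCA match is left in lower case. They lie at chr17:28080640-28080889 on the minus strand for Tcp11 and chr3:67373847-67374096 on the plus strand for Mlf1.
Tcp11: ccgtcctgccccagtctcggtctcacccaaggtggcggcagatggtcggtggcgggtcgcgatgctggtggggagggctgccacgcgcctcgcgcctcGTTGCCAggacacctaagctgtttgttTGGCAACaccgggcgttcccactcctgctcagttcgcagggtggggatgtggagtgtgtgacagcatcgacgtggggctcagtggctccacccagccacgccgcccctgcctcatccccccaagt
Mlf1: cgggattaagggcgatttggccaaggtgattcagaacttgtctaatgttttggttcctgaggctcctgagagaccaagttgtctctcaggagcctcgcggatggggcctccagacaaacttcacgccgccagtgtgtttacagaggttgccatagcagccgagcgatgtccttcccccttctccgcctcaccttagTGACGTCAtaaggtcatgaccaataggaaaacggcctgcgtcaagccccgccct

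Ordered by role, the differences between genotypes had much the same centre in most groups. Role groups were assigned after the values were known. Their medians ran from 0.28 for 8 proteins of the sperm head and surface to 0.65 for 8 mitochondrial proteins. After quantile normalization they ran from -0.32 for the sperm head and surface group to 0.17 for the axoneme and microtubule group. The statements by gene that follow hold for FPKM as deposited. As the share to set beside the group counts below, 65.8% of all members had both knockout libraries above both wild-type libraries. Of genes with a mean of at least 100 FPKM 49.6% did.

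**Figure D4:**
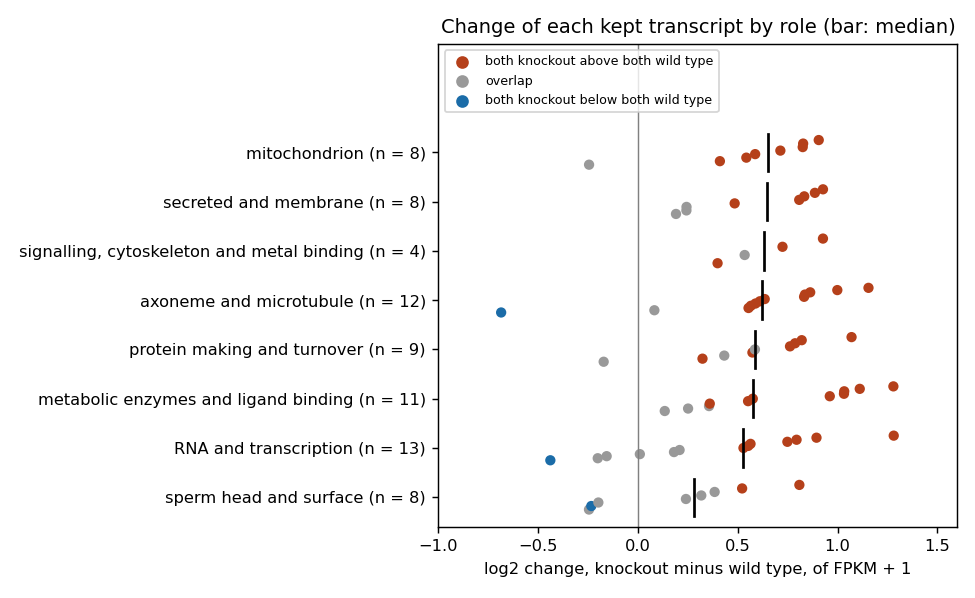
Log2 difference of FPKM + 1, knockout minus wild type, for each of the 73 transcripts by role; each point is a transcript, the bar is the group's median and the colour says whether the libraries of the genotypes overlap. The medians of 7 groups lie between 0.53 and 0.65 and that of the sperm head and surface group at 0.28, with Mlf1 the furthest point to the left.

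Proteins of the axoneme and of microtubules made up 12 members, of which 10 had both knockout libraries above both wild-type libraries, and the group took 3.05% and 2.73% of all FPKM in wild type and 3.89% and 4.21% in the knockout. Morn5, a MORN-repeat protein, stood at 2031 and 1507 FPKM with Sox30 and at 2419 and 2862 FPKM without it. Rsph1, a subunit of the radial spoke head that regulates axonemal bending, stood at 1666 and 1647 against 2758 and 2179.7 FPKM. Both had all knockout values above the wild-type values. The dynein light chain genes Tctex1d2, Dynlt1b and Dynlrb2, the centrin gene Cetn1, the MORN-repeat gene Morn2, Efcab10, and Cenpv were higher in both knockout libraries too, with log2 differences of 0.55 to 0.998. Lrrc46, coding for a leucine-rich repeat protein of the sperm tail, overlapped between genotypes at 1178 and 1020.5 against 1379 and 977 FPKM. Mlf1, myeloid leukemia factor 1, went the other way, at 1326 and 1078 FPKM with Sox30 and at 732 and 755 FPKM without it. Its knockout values were close to each other and lay below both wild-type values, at 0.622 times the wild-type level. Of the 34 genes tested in a wider list of axonemal proteins and motor light chains, which holds 7 members, 4 were lower and 1 was higher in the knockout by limma (4 and 8 at an unadjusted p under 0.05), where 13.4% and 1.95% of all genes tested were. At that unadjusted threshold 2860 of all 9124 genes tested passed in either direction. The list's median log2 difference was 0.24, and over its 27 genes that are no members it was -0.08.

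The sperm head and surface group of 8 had the lowest median, and 5 of its members overlapped between genotypes. Dkkl1, an acrosomal protein, was abundant in every library at 2389.9 and 2089 FPKM with Sox30 and at 3336 and 3083 FPKM without it. With Fabp9 it made up the pair whose knockout values lay above wild type. Spa17, a sperm surface protein that binds A-kinase anchors, stood at 1895 and 1532 against 1772 and 2789 FPKM, and the phosducin-like protein gene Pdcl2 at 1412 and 1126 against 1294 and 1908 FPKM. In both, knockout library 1 lay between the wild-type libraries. Crisp2, a cysteine-rich secretory protein of the acrosome and tail, stood at 869 and 663 FPKM with Sox30 and just below, at 651 and 639.6 FPKM, without it. Lypd4, a GPI-anchored protein of sperm, stood at 1422 and 1125 against 1281 and 889 FPKM, and Bsg, basigin, a partner of lactate transporters, at 768 and 658 against 719 and 534 FPKM. Tcp11 showed the widest gap between libraries of a genotype: 1454 FPKM in knockout library 1 and 609 FPKM in knockout library 2, on either side of 691 and 919.9 FPKM in wild type.

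Among 11 metabolic enzymes and ligand-binding proteins, 8 had both knockout libraries above wild type and none had both below. Pgp, phosphoglycolate phosphatase, stood at 1649 and 1523 FPKM with Sox30 and at 3061 and 3109 FPKM without it, with little spread inside a genotype. Pgam2, the muscle form of the glycolytic enzyme phosphoglycerate mutase, stood at 1516 and 1290.0 against 2693 and 3041 FPKM. Its broadly expressed relative Pgam1 was between 4.68 and 7.62 FPKM in every library, so the muscle form was the abundant one in both genotypes. Ddt, D-dopachrome tautomerase, stood at 836 and 652 FPKM with Sox30 and at 1451 and 2217 FPKM without it, 2.43-fold higher. Aprt, which salvages adenine, stood at 660.4 and 524 against 1221 and 1325 FPKM, and Pebp1, a phospholipid-binding inhibitor of RAF kinase, at 823 and 933 against 1860.0 and 1727 FPKM. Both lay about 2-fold higher without Sox30, with no overlap. The acylphosphatase gene Acyp1, the phospholipid acyltransferase gene Hrasls5 and the asparaginase-like gene Asrgl1 were also above wild type in both knockout libraries, by 0.36 to 0.57 on the log2 scale. The libraries overlapped for Dbil5, an acyl-CoA binding protein of spermatids, Hagh, the glyoxalase II enzyme, and Fbp1, fructose bisphosphatase, whose values were 906 and 887 against 1239 and 781 FPKM.

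The mitochondrial group numbered 8, and 7 were above wild type in both knockout libraries. Atpif1, which inhibits the reverse action of ATP synthase, was its most abundant member at 1946 and 1511 FPKM with Sox30 and at 2327 and 3967 FPKM without it. The import factors Timm8b and Tomm7, the ribosomal protein gene Mrpl54, the pyruvate carrier gene Brp44 (now Mpc2), the cristae protein gene Chchd6 and AA467197 had log2 differences of 0.41 to 0.91. Slc25a39 overlapped, at 752 and 714 FPKM with Sox30 and at 753 and 507 FPKM without it, and would leave the set at a slightly higher floor because of knockout library 2.

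Genes for making and turning over proteins gave 9 members. Ubb, a polyubiquitin gene, stood at 2840.4 and 2436 FPKM with Sox30 and at 4503 and 3401 FPKM without it, above wild type except after quantile normalization, where the libraries overlapped. Serf1, a small protein that modifies protein aggregation, stood at 3154 and 2392 FPKM with Sox30 and at 2583 and 5317 FPKM without it. Its level in knockout library 2 was far above the other 3, and knockout library 1 lay between the wild-type libraries. Hsbp1, which binds the heat shock factor HSF1, stood at 1950.0 and 1458 against 2599 and 3412 FPKM, and Myeov2 (now Cops9), a subunit of the COP9 signalosome, at 1222 and 926 against 1672 and 2985 FPKM. Both were higher without Sox30 with no overlap, as were Srp14 of the signal recognition particle, the elongin B gene Tceb2 (now Elob) and the oligosaccharyltransferase subunit gene Dad1. The proteasome subunit gene Shfm1 (now Sem1) overlapped, with knockout library 2 highest, and so did the signal peptidase subunit gene Spcs1, at 794 and 678 against 614 and 689.7 FPKM.

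Of the 13 genes placed under RNA and transcription, 7 were above wild type in both knockout libraries, 5 overlapped and 1 lay below. For Ggnbp1 and Mea1, both among the 7, the descriptions given here name no such role. Ggnbp1, a binding partner of gametogenetin, had the largest difference of all members, at 604 and 781 FPKM with Sox30 and at 1807 and 1545 FPKM without it, 2.43-fold higher. Csda (now Ybx3), a Y-box protein that stores mRNA in germ cells, was the one below wild type, at 899.7 and 912 against 832 and 536 FPKM. Genes of the piRNA pathway, which silences transposons in the germ line, overlapped: Gtsf1 stood at 1935 and 1432 against 1717 and 2074 FPKM. Mael, of the same pathway, stood at 1491 and 1255 against 1689 and 890.5 FPKM, and in it knockout library 1 was the highest and knockout library 2 the lowest of all 4. Taf9, a subunit of TFIID, stood at 1345 and 1049 against 1237 and 862 FPKM, and Phf7 and the nucleolar protein gene Lyar overlapped as well. The elongation factor genes Elof1 and Tcea2, the chromatin assembly gene Chrac1, Nop10 of the H/ACA particles, the coactivator gene Edf1 and Mea1, the male-enhanced antigen, had log2 differences of 0.53 to 0.89 with no overlap.

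The remaining 12 members are secreted or membrane proteins (8) and proteins of signalling, the cytoskeleton and metal binding (4). Cmtm2a and Cmtm2b code for MARVEL-domain membrane proteins and lie 29.0 kb apart on chromosome 8, with Cklf, of the same family, 15 kb from Cmtm2a. Cmtm2a stood at 2159 and 1638 FPKM with Sox30 and at 2364 and 1947 FPKM without it, and Cmtm2b at 1567 and 1267 against 2340.4 and 2692 FPKM. Cmtm2a overlapped between genotypes and Cmtm2b did not; after quantile normalization Cmtm2a lay below wild type and Cmtm2b overlapped, and after median-ratio scaling both lay above. Whether the pair differ in their change was not tested. The 250 bases before their starts are nearly the same: 242 of 247 aligned bases (98.0%) are identical, although the genes lie on opposite strands (Cmtm2a at chr8:104293182-104293431, minus strand; Cmtm2b at chr8:104321977-104322226, plus strand). Capitals mark bases that differ or have no partner in the alignment.
Cmtm2a: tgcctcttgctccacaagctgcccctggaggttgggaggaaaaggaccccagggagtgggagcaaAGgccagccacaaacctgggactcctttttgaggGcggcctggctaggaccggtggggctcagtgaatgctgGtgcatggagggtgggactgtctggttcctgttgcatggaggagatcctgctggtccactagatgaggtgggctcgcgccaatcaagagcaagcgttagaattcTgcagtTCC
Cmtm2b: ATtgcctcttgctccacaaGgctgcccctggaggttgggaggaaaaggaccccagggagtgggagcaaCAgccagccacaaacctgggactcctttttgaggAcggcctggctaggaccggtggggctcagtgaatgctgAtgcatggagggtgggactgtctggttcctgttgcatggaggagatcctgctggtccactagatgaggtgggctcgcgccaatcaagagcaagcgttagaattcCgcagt

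Of the others in these groups, Cklf, the whey acidic protein gene Wfdc15a, the insulin-like peptide gene Insl6 and Tmem89 were above wild type in both knockout libraries, by 0.48 to 0.93 on the log2 scale. The defensin gene Defb19 stood at 621 and 764 against 711 and 935 FPKM and the sterol-related membrane protein gene Tmem97 at 691 and 558 against 886 and 610.3 FPKM, both with overlap. Mt2, a metallothionein, stood at 759 and 588 FPKM with Sox30 and at 996 and 1619 FPKM without it, and Csnk2b, the regulatory subunit of casein kinase 2, at 1384 and 1058 against 1749 and 1455 FPKM. The actin-binding thymosin gene Tmsb10 overlapped. Calm3, which encodes calmodulin, stood at 601 and 501 against 760.1 and 1080.4 FPKM, and was above wild type in both knockout libraries under all 3 scalings.

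Libraries of the same genotype differed as well. Wild-type library 1 was above wild-type library 2 for 66 of 73 members, with a median log2 difference of 0.32, and wild-type library 2 was the lowest of the 4 for 54 members. Knockout library 2 was above knockout library 1 for 47, by a median of 0.23, but the differences ran from -1.25 for Tcp11 to 1.04 for Serf1. The members have short transcripts, with a median of 1025 bases against 2307 for genes of at least 1 FPKM, a median coding length of 507 against 1170 bases and 4 exons against 8. A transcript under 1000 bases was found for 36 members (49.3%), against 13.3% of those genes. Some other abundant symbols were as short. The median was 966.5 bases for the 40 that missed the floor in a wild-type library (55% under 1000 bases). For the 22 that missed it in a knockout library the median was 873 bases (61.9% under 1000 bases). Of these, the 11 with a knockout mean under 60 FPKM had a median of 600 bases (100% under 1000 bases). The other 11 were longer than the members, with a median of 1915.5 bases (20% under 1000 bases). Length went with the difference between the knockout libraries. Among the 36 members of 394 to 961 bases, knockout library 2 was the higher for 34, with a median log2 difference of 0.46, and among the 37 of 1025 to 4195 bases it was the higher for 13, with a median of -0.17. Across the 73 genes, which share their libraries, log2 length had a Pearson r of -0.58 and a Spearman rho of -0.65 with the difference between the knockout libraries, and -0.45 and -0.54 with that between the wild-type libraries. With the difference between genotypes r was -0.40 and rho -0.44, and the median of that difference was 0.80 for the shorter and 0.36 for the longer members. FPKM divides by length, and the part of that step in these values was not tested.

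**Figure D5:**
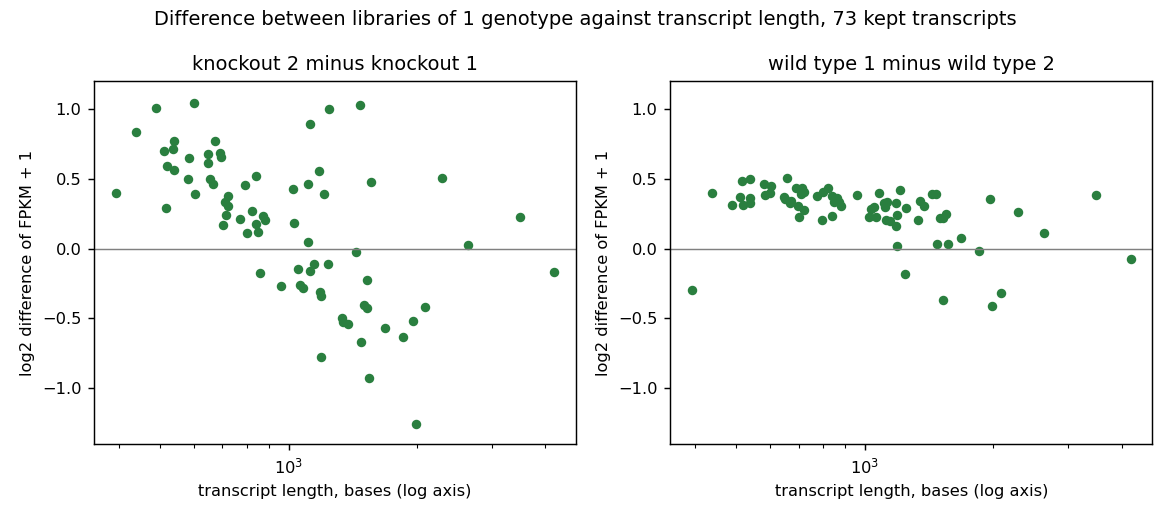
Log2 difference of FPKM + 1 between the 2 libraries of a genotype against transcript length (log axis), 1 point per member, with the knockout libraries on the left and the wild-type libraries on the right. Shorter members are mostly higher in knockout library 2, by a median of 0.46, and longer ones are mostly higher in knockout library 1.

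Some of the levels may hold fragments of other genes. Tcte3 has near copies: the transcript of Gm3448 is identical over 92.2% of its length and that of Gm3417 is 98.8% identical over 93.1%. Gm3417 stood at 1589 and 1444 FPKM with Sox30 and at 2770.4 and 5787 FPKM without it, and Gm3448 at 1025 and 827 against 2069 and 2951 FPKM. All 3 lay above wild type in both knockout libraries under each scaling, and how reads were divided among them is not stated in the sources used here, so the value of Tcte3 alone is uncertain. Dynlt1b likewise has near copies in Dynlt1c (99.2% identical), Dynlt1f and Dynlt1a, and Dynlt1c stood at 543 and 448 against 938 and 1052 FPKM. The exons of 17 members overlap another gene, for 10 of them on the opposite strand: Atpif1, Dbil5, Mea1, Morn2, Mt2, Serf1, Spa17, Tceb2, Tcte3 and Timm8b. Strand use in counting is not stated in those sources either, so pairs on opposite strands cannot be told apart. On the same strand, Fabp9 overlaps Gm37389, Cmtm2a overlaps Cmtm1 and Gm45711, and Ddt overlaps Gm20441. Taf9 overlaps Ak6 and Tcp11 overlaps AC132460.1 in the same way, as AA467197, Elof1 and Tcte3 do Mir147, Mir7084 and Gm3448. How reads were divided within same-strand pairs is not stated, so those values are uncertain too.

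By chromosome, 12 of the 73 members lie on chromosome 17 (16.4%), which holds 4.94% of the genes of at least 1 FPKM with a known place. They are Tcte3, Pgp, Rsph1, Mea1, Morn2, Csnk2b, Ggnbp1, Dynlt1b, Hagh, Tcp11, Tceb2 and Crisp2. Of these 12, 9 were above wild type in both knockout libraries. So were 65.8% of all members and 49.6% of genes with a mean of at least 100 FPKM. The 40 symbols that reached the floor in both knockout libraries and missed it in at least 1 wild-type library had 17.9% on chromosome 17. Of these 40, 17 reached the floor in the other wild-type library. The X chromosome, which is silenced in meiotic prophase, held 0 members and 3.42% of genes of at least 1 FPKM. Of those 40 symbols and of the 22 that missed the floor in a knockout library, 0 with a known place lay there either. Besides the Cklf and Cmtm2 genes, the only members within 100 kb of each other were Cenpv and Ubb on chromosome 11, 11.3 kb apart.

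Lists of genes known to be switched on in meiosis or after it place the members by onset. Of 64 genes of meiotic onset 9 are members: Cetn1, Crisp2, Dkkl1, Fabp9, Insl6, Pebp1, Rsph1, Tcp11 and Tcte3. Of 56 genes of postmeiotic onset 2 are members, Pdcl2 and Pgam2. The members were chosen by the floor, so the rest of each list is given apart. The lists too were drawn up with earlier results of these data known. Their counts are therefore a description and no independent evidence that onset sets which transcripts fall. Of the 55 other genes of meiotic onset 7 fell and 1 rose by limma, with a median log2 difference of -0.21, while 47 of the 54 other genes of postmeiotic onset fell and 0 rose, with a median of -5.67 (0 were also higher at an unadjusted p under 0.05). With the members included, the counts were 7 lower and 2 higher of 64, and 47 lower and 0 higher of 56, and without wild-type library 2 limma called 0 in either list, where 7 and 45 were lower at an unadjusted p under 0.05. The shares called over all genes tested were 13.4% lower and 1.95% higher. The 4 genes of postmeiotic onset with the largest falls code for the protamines and transition proteins that replace histones: Prm2, Prm1 (log2 difference -9.001, SE 1.05, adjusted p by limma = 0.0032), Tnp1 and Tnp2. Prm2 stood at 1228 and 719 FPKM with Sox30 and at 0.288 and 0.46 FPKM without it (log2 difference -9.42, SE 0.37, adjusted p by limma = 0.00048). Tnp1 was at 1516 and 968 FPKM in wild type and was listed at 4.82 and 0 FPKM in the knockout (adjusted p by limma = 0.0014), and Tnp2 at 2161 and 1143 against 6.98 and 0.559 FPKM (adjusted p by limma = 0.00136). The members Pdcl2 and Pgam2 stood at 1126 FPKM or more in every library. The floor in every library chose them, so no contrast with the genes that fell is drawn. Outside the set, Odf4, Ppp3r2, Tcp10b and Actl7b were not called lower by limma either (log2 differences of -0.07, 0.34, 0.34 and 0.41). Nor were Gk2, Odf1 and Dcst1 (-0.54, -2.21 and -2.34).

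Among genes of meiotic onset outside the set, 4 with the largest falls and the 1 that rose show the range. Pdilt, a testis chaperone of the endoplasmic reticulum, was at 30.3 and 48.4 FPKM with Sox30 and at 0.323 and 1.69 FPKM without it (log2 difference -4.38, SE 0.49, adjusted p by limma = 0.00274), and Calr3, a testis calreticulin, at 36.9 and 27.3 FPKM against 2 and 0 FPKM (adjusted p by limma = 0.00612). Gsg1 fell from 471 and 389 to 58.0 and 41.4 FPKM (adjusted p by limma = 0.00185) and Hook1, a microtubule linker of the spermatid head, from 21.2 and 33.0 to 5.24 and 4.57 FPKM (adjusted p by limma = 0.0122). Hist1h1t, the testis linker histone of spermatocytes, rose from 1.06 and 1.31 to 4.81 and 10.1 FPKM (log2 difference 1.88, SE 0.44, adjusted p by limma = 0.0392). These levels are low, and Hist1h1t was not called higher at a pseudocount of 0.1 or with no filter on low values. At a mean of at least 5 FPKM it was not among the genes tested. The 9 members of meiotic onset ranged in log2 difference from -0.23 for Crisp2 to 1.15 for Tcte3. The floor kept large falls out of the set, so no contrast with the genes above is drawn. Of the 9, 7 had both knockout libraries above both wild-type libraries. Of all members 65.8% did so, and of genes with a mean of at least 100 FPKM 49.6% did.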

How the data were processed

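RNA of sorted round spermatids was sequenced in 4 libraries, grouped by sample title. The authors deposited FPKM per symbol, with TopHat2 (2.0.6), Cufflinks (2.0.2), Cuffdiff and the build mm9 named, per the submitters' processing notes. Settings are not stated there. FPKM keep no counts, so depth and counting error are unknown, and the number of libraries limits the precision. The 23021 entries of each table were summed to 22552 symbols. Genes with a mean of at least 1 FPKM were fitted as log2(FPKM + 1) with limma 3.58.1 in R 4.3.3 (genotype only, empirical Bayes with trend, residual degrees of freedom 2, prior 3.84), two-sided, with Benjamini-Hochberg adjustment and a threshold of 0.05. A fold on this scale understates the change of low genes. The fit was tested on simulated data. The members and lists were chosen with earlier results of these data known. Named genes were Fabp9, Tcte3, the 12 most abundant members, the 6 with the largest and the 6 with the smallest difference, the 3 symbols on each side of the floor, Sox30, and up to 4 called genes per direction of each onset list; other values were chosen for printing after they were seen. Transcript length, exons and overlaps came by symbol from GENCODE M21 (22126 of 22552 symbols), whose build differs from the authors', near copies from blastn 2.17.0 (at least 95% identity over 80% of the transcript), and promoters from RefSeq (60 of 73 members, 6 of the 73 matched by a newer symbol). Wider lists of lipid binding, energy metabolism, translation, turnover and the like were counted too. Other settings tried were pseudocounts of 0.1 and 5, no filter and a mean of at least 5 FPKM, median-ratio scaling, quantile normalization, a replicate block, floors of 250 and 1000 FPKM and leaving out each library; a lowess correction on transcript GC content and a crossed block were added after seeing the data.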

Additional observations from a re-analysis of the deposited data

How the results depend on the processing

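The members numbered 161 at a floor of 250 FPKM and 23 at 1000, and 73 to 90.0 with each library left out. Their median log2 difference of 0.57 was 0.79 after median-ratio scaling, 0.02 after quantile normalization and 0.44 to 0.71 with each library left out. Their share of all FPKM kept its direction without Rpl and Rps genes and the 10 most abundant symbols, and with each library left out. That share was not computed after quantile normalization or median-ratio scaling. Members called higher, 3 at first, numbered 0 to 22 over all settings, and those called lower 0 or 1. Against 1221 genes lower and 178 higher, there were 696 and 32 with no filter on low values, 787 lower at a mean of at least 5 FPKM, 113 higher at a pseudocount of 0.1, 276 higher after median-ratio scaling, 615 higher (979 lower) after quantile normalization and 311 higher after GC correction. Leaving out each library gave 0 to 3071 lower and 0 to 984 higher; the cause was not tested. Same-numbered libraries did not deviate together (correlation -0.20), and with the library number as a replicate block 1056 were lower and 82 higher and 1 gene of meiotic onset was higher. The crossed replicate block, added after seeing the data, gave 1416 lower, 390.0 higher, and 6 genes of meiotic and 1 of postmeiotic onset higher. Of genes of meiotic onset, 2 were lower with no filter and 0 to 16 with each library left out, where 7 were at first. Those higher, 2 at first, numbered 0 at a pseudocount of 0.1, with no filter and at a mean of at least 5 FPKM, 1 after median-ratio scaling and after GC correction, and 0 to 4 with each library left out. Their median of -0.14 was 0.079 after median-ratio scaling, 0.19 after GC correction and -0.25 to 0.047 with each library left out. Of genes of postmeiotic onset, 29 were lower with no filter, and 0 to 50 lower and 0 to 1 higher with each library left out. Their median of -5.60 was -7.58 at a pseudocount of 0.1 and -4.02 at 5. With 2 libraries a genotype and no counts, small differences between members cannot be told from spread.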

Other observations

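Wider gene lists that hold members were counted over the whole table by limma. Of 19 lipid-binding genes tested, 4 were lower and 2 higher in the knockout (4 and 3 at an unadjusted p under 0.05), and 3 of the list are members (Dbil5, Fabp9 and Pebp1). Of 28 genes of ubiquitin and protein turnover 4 were lower and 2 higher (6 and 7 unadjusted), and of 27 phosphatases, kinases and their inhibitors 5 were lower and 1 higher (8 and 2 unadjusted). Of 36 energy metabolism genes 2 were lower and 0 higher, where 7 and 2 were so at an unadjusted p under 0.05. Of 36 genes of RNA binding and translation 1 was lower and 0 higher (7 and 4 unadjusted), of 24 endoplasmic reticulum chaperones and lectins 2 and 0 (4 and 1 unadjusted) and of 25 genes of cytoskeleton and adhesion 5 and 0 (9 and 1 unadjusted). The chromatin and nuclear list, which holds no member, had 2 lower and 0 higher of 23 (3 and 1 unadjusted). The share called over all genes tested was 13.4% lower and 1.95% higher. At an unadjusted p under 0.05 by limma, 2860 of the 9124 genes tested passed in either direction.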
